A study of Homo sapiens with 6 samples.

Results

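The RNA-Seq libraries of SAS-Fucci cells were searched for 10 transcription factors: TP63, SOX2, PITX1, TFAP2A, KLF5, KLF4, GRHL1, GRHL2 and GRHL3, which are known for their roles in stratified and other epithelia, and MYC, a general regulator of cell growth. They were taken by gene name from the deposited table, from a list drawn up with earlier results of these data known, and all 10 were found among 59520 named gene models. SAS-Fucci cells are a human tongue squamous cell carcinoma line carrying a fluorescent cell-cycle reporter. They were transfected with IGFBP3 siRNA #1 and collected after 72 h (2 libraries) or 48 h (2 libraries), or were given a non-targeted control siRNA (Cont, 2 libraries). The medium of the 72 h cells was exchanged after 48 h, and the sources used here do not say when the control cells were collected, so time, medium change and knockdown cannot be fully told apart. Nor do they state that replicate libraries were made from independent cultures, so p-values measure only the spread between these libraries. All groups share 1 cell line, and siRNA #1 was the only IGFBP3 siRNA among the libraries.

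The level of each gene was its FPKM, its reads scaled to gene length and library depth, which can be compared between genes. Assigned reads ran from 17430740 to 21579560 a library. IGFBP3, the targeted transcript, stood at 1.52 and 3.25 FPKM at 72 h and 0.261 and 0.258 FPKM at 48 h, against 24.7 and 23.1 FPKM in Cont cells, so all knockdown libraries lay below both controls. All 10 markers listed for squamous epithelium passed the filter on low values. KRT8, KRT18, CDH1 and EPCAM among them are not particular to squamous cells, so the sum does not measure squamous character. The summed FPKM of the 10 was 1680 to 1850 at 72 h and 1410 to 1490 at 48 h, against 1420 to 1600 in Cont cells. KRT18 and KRT8, which averaged 722 and 337 FPKM at 48 h, against 483 and 312 FPKM in Cont cells, carried most of this sum. KRT5, KRT6A and KRT14 stood at 44.7%, 38.2% and 23.0% of their Cont means at 48 h, and KRT17 was lower as well. The summed FPKM of the 7 fibroblast markers was 1.09 to 1.16 at 72 h and 0.815 to 0.92 at 48 h, against 1.68 to 1.76 in Cont cells. COL1A1, the only 1 of the 7 that passed the filter, carried most of this sum. It had 0.854 and 0.934 FPKM at 72 h and 0.588 and 0.779 FPKM at 48 h, against 1.25 and 1.28 FPKM in Cont cells. The summed FPKM of the 5 endothelial markers did not exceed 0.836 in any library, and that of the 5 leukocyte markers did not exceed 0.696. Of these, 2 endothelial and 3 leukocyte markers were listed at 0 in every library. Where these sums move with a result, their part in it was not tested. In bulk libraries, less RNA per cell and fewer cells expressing a gene cannot be told apart.

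Stratified epithelia are built by a small set of DNA-binding proteins. p63, the product of TP63, maintains basal keratinocytes and their keratins, adhesion proteins and growth factor receptors, and in squamous carcinomas it often acts with SOX2, a high mobility group factor. AP-2α (TFAP2A) and the zinc finger proteins KLF4 and KLF5 bind GC-rich elements of epidermal genes. KLF5 is known in proliferating basal cells, and KLF4 in cells that leave the cycle to form the barrier. The grainyhead-like proteins (GRHL1 to GRHL3) switch on genes of cell junctions, membrane proteases and the cornified envelope. MYC binds E-boxes as a dimer with MAX and raises genes of ribosome production and nucleotide synthesis.

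The DNA just upstream of the transcription start is shown for the 3 factors that passed a test in these libraries and have an entry in the RefSeq promoter table (GRCh38.p14), since other members of the set are known to bind the short motifs it holds. The capitals mark GC boxes (GGGCGG) and CACCC boxes, the kinds of site that Krüppel-like factors bind, and the E-box CACGTG, which MYC and MAX bind, each read on both strands. Upstream here and below refers to the starts of that table, some of which lie inside the gene model used for the FPKM. That of KLF4 does, so its 250 bases fall wholly within the model (chr9:107484852-107490482). The 250 bases end at the base before the start and run 5′ to 3′ on the strand of the gene: GRHL3 at chr1:24319107-24319356 (+), TFAP2A at chr6:10419660-10419909 (−) and KLF4 at chr9:107489770-107490019 (−).
GRHL3: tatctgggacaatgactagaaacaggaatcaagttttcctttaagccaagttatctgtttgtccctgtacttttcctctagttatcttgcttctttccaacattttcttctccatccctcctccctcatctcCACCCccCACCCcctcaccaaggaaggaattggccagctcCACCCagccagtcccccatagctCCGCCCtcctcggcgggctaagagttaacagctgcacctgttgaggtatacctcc
TFAP2A: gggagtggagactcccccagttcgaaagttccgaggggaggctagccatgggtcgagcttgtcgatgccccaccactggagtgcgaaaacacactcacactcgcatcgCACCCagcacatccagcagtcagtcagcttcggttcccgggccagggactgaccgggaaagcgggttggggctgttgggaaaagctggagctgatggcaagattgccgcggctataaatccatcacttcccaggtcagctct
KLF4: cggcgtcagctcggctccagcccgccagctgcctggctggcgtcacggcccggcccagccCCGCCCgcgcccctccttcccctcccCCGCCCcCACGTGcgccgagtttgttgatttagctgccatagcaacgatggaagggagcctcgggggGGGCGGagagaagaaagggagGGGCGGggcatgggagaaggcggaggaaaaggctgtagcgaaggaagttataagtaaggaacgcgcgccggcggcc
The KLF4 stretch holds 4 GC boxes and 1 E-box, the GRHL3 stretch 1 GC box and 3 CACCC boxes, and the TFAP2A stretch 1 CACCC box. GRHL3 and TFAP2A each have a second start in the table, not shown, with 1 CACCC box upstream.

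Of the 10 genes, 8 matched that table, with 11 starts between them, and GRHL2 and MYC did not. GC boxes lay upstream of 6 of the 11 starts (6 genes), against 42.6% of the 35116 promoters of the table searched over the same 250 bases. The motifs may overlap one another. CACCC boxes lay upstream of 7 of the 11 starts (4 genes), against 54.7% of all promoters, and the E-box upstream of KLF4 alone, 1 of the 11 starts, against 6.34%. The AP-2 motif GCCNNNGGC, which can overlap a GC box, was found upstream of SOX2, KLF4 and the second start of GRHL3 (19.8% of all promoters). The SOX motif AACAAT was found upstream of the first KLF5 start (8.98%), and the p63 half-site upstream of the second GRHL3 start (5.57%). The grainyhead motif AACCNGTT (1.49% of all promoters) and the PITX motif TAATCC (5.62%) were not found upstream of any of the 8 genes in this window. These matches describe letters and are not measurements of binding.

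In Cont cells the 10 transcripts covered a wide span of levels. MYC was the most abundant at 57.4 ± 4.97 FPKM (SD, n = 2 here and below), which placed it at percentile 93.6 of the 11214 genes tested. GRHL2 (21.6 ± 0.992 FPKM), KLF5 (18.6 ± 3.19), TFAP2A (15.1 ± 2.8), TP63 (11.5 ± 1.15) and PITX1 (8.95 ± 0.0488) formed the middle of the order. GRHL3 (4.17 ± 1.65), KLF4 (1.53 ± 0.218), SOX2 (1.21 ± 0.455) and GRHL1 (0.615 ± 0.0127) were low. The libraries of KLF5 and TFAP2A overlapped, as did those of KLF4 and SOX2, so the order within these pairs is not separated by the replicates, whereas all other neighbours in this order did not overlap. At 72 h and at 48 h MYC again came first and KLF5 second. GRHL3 stood at percentile 16.2 of the tested genes at 72 h and 0.401 at 48 h, against 38.4 in Cont cells.

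**Figure D1:**
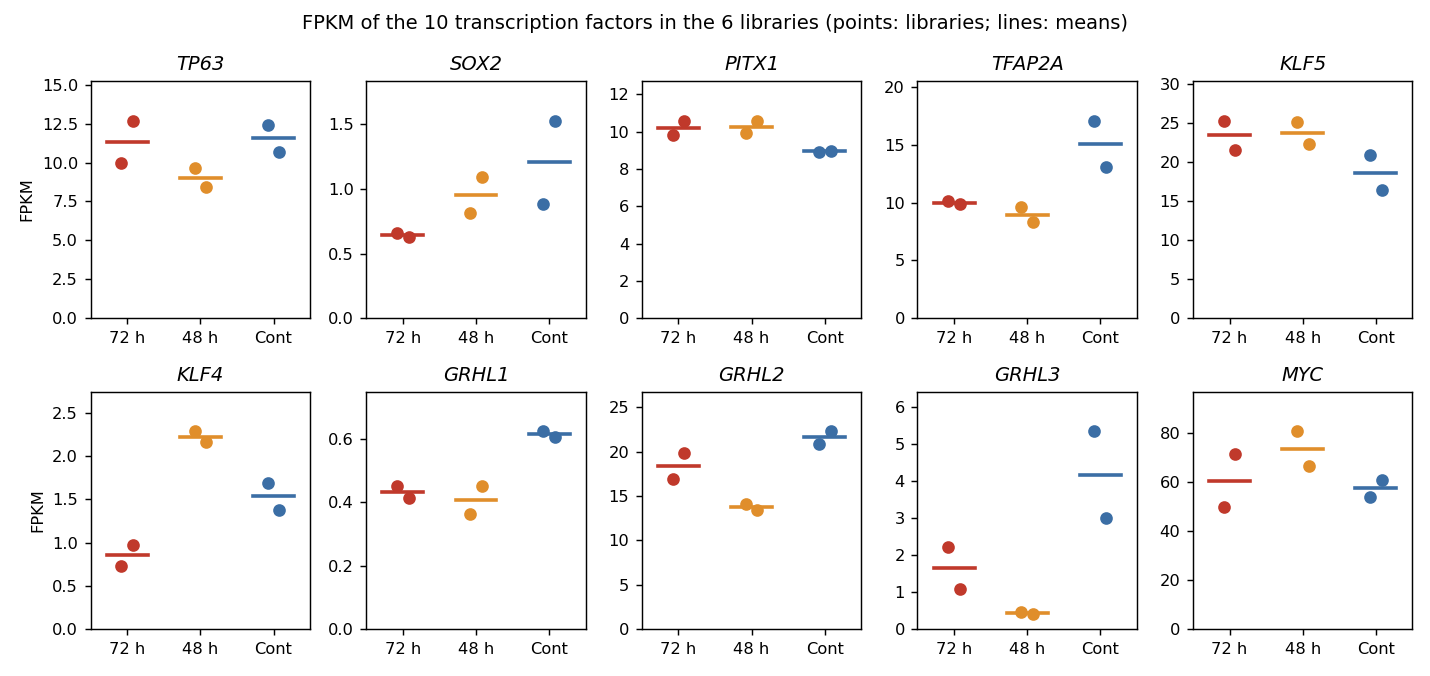
FPKM (vertical axes, each from 0) of the 10 factors in the 72 h, 48 h and Cont libraries. Points are single libraries and lines are the means of 2. GRHL3 lies at 0.455 and 0.406 FPKM at 48 h, against 5.34 and 3.0 FPKM in Cont cells, and KLF4 is lowest at 72 h and highest at 48 h.

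All p-values below come from limma on log2(FPKM + 1) over all genes tested and are Benjamini-Hochberg adjusted, two-sided, with 0.05 as the threshold, and log2 fold changes on this scale understate the change of genes near or below 1 FPKM. GRHL1 stayed below the filter on low values (2 or more of the 6 libraries at 1 FPKM or above), which left 9 tested factors. At 72 h against Cont, 2 of the 9 were lower (TFAP2A and KLF4) and 0 were higher, where limma called 13.1% of all tested genes (9.51% lower and 3.56% higher). At 48 h against Cont, 3 of the 9 were lower (GRHL3, TFAP2A and GRHL2) and 0 were higher, where 24.8% of all tested genes were called (16.5% lower and 8.38% higher). At 72 h against 48 h, 1 was lower (KLF4) and 0 were higher, where 4.06% of all tested genes were called (1.86% lower and 2.19% higher). At an unadjusted p under 0.05 in limma, 6, 7 and 3 of the 9 passed in these comparisons. With voom on the whole reads recovered from the FPKM, 3 were lower and 0 higher at 72 h and at 48 h, and 1 was lower and 1 higher between the 2 times. The comparisons share libraries, so their counts are not independent of each other. Calls between the 2 times rested on single libraries, and with the first 48 h library left out limma called 0 genes of the whole table there.

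The middle value of the 9 log2 fold changes was −0.22 at 72 h and −0.16 at 48 h, against −0.05 and −0.04 over all tested genes. Without overlap between the libraries, 5 factors lay lower and 2 higher at 72 h, where 37.2% of all genes lay lower and 21.2% higher in this way. At 48 h, 4 lay lower and 4 higher, where the shares of all genes were 38.7% and 27.3%. At 72 h against 48 h, 2 lay lower and 4 higher, where the shares were 30.7% and 28.2%. With only 9 factors, these counts were not tested against the shares over all genes and are not read as a result about the members. Quantile normalization of all libraries changed the balance of calls among all genes, to 675 lower and 552 higher at 72 h, against 1066 and 399 without it, and to 1419 lower and 1375 higher at 48 h, against 1845 and 940.

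**Figure D2:**
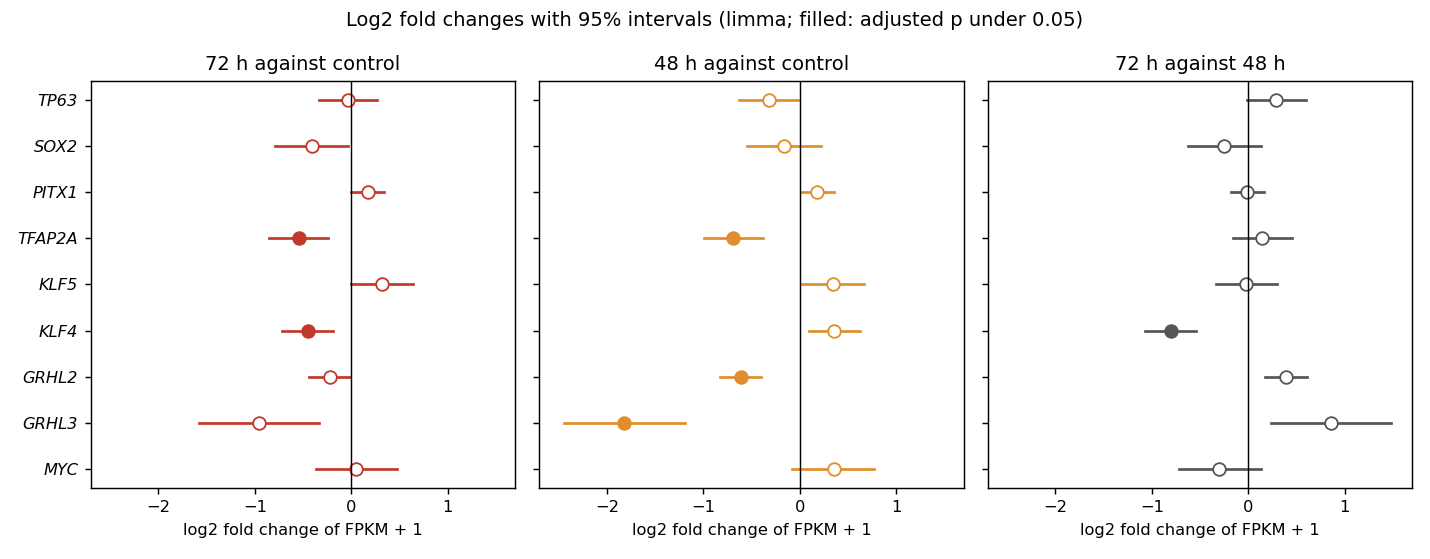
Log2 fold change of FPKM + 1 (horizontal axes) of the 9 tested factors in 3 comparisons, with 95% intervals from limma. Filled points passed an adjusted p under 0.05: TFAP2A and KLF4 at 72 h, TFAP2A, GRHL2 and GRHL3 at 48 h, and KLF4 at 72 h against 48 h.

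GRHL3 and GRHL2 were lower at 48 h, and for each of the 3 grainyhead-like genes all 4 knockdown libraries lay below both controls. Of all tested genes, 37.2% lay below Cont without overlap at 72 h and 38.7% at 48 h. The share that did so at both times was not counted, so this is not read as a result about the family. GRHL3 (ENSG00000158055, chr1:24319357-24364482, + strand), whose product in mice is needed for the skin barrier and for closure of the neural tube, had 2.21 and 1.09 FPKM at 72 h and 0.455 and 0.406 FPKM at 48 h, against 5.34 and 3.0 FPKM in Cont cells. The 48 h libraries lay below the 72 h ones, and the first Cont library was the highest of the 6. At 48 h the mean was 9.69-fold below Cont, with 32 and 33 reads a library, against 421 and 209 in Cont, and the log2 fold change was −1.82 (SE 0.26, adjusted p = 0.00559). At 72 h the mean was 39.6% of Cont, and the log2 fold change of −0.96 (SE 0.26) gave an adjusted p of 0.0585, which did not pass, whereas voom on the recovered reads gave 0.0176. The difference of 0.86 between 72 h and 48 h did not pass either (adjusted p = 0.107).

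GRHL2 (ENSG00000083307, chr8:101492439-101669726, + strand), which is known to maintain E-cadherin and claudin expression in simple and stratified epithelia, had 16.9 and 19.8 FPKM at 72 h and 14.1 and 13.4 FPKM at 48 h, against 20.9 and 22.3 FPKM in Cont cells. The groups followed each other without overlap, lowest at 48 h and highest in Cont. The fall at 48 h to 63.8% of the Cont mean passed the test (log2 fold change −0.61, SE 0.09, adjusted p = 0.0061). The values at 72 h, 85.2% of the Cont mean, did not (−0.22, SE 0.09, adjusted p = 0.157), nor did 72 h against 48 h (0.39, SE 0.09, adjusted p = 0.0623). The 48 h calls of GRHL2 and GRHL3 held with each library left out in turn, with adjusted p of 0.00662 to 0.0447 for GRHL2 and 0.00607 to 0.0399 for GRHL3. Its exons share 50 bases with AP001207.3 on the opposite strand, a transcript at no more than 1.23 FPKM, and how strand was handled is not stated.

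GRHL1 (ENSG00000134317, chr2:9951693-10002277, + strand), a regulator of desmosomal cadherins in skin, was the least abundant of the 10. It had 0.451 and 0.414 FPKM at 72 h and 0.364 and 0.451 FPKM at 48 h, against 0.624 and 0.606 FPKM in Cont cells. The 4 knockdown libraries, with 51 to 74 reads each, lay below both controls, which had 98 and 84 reads. In a fit without the filter on low values, neither time passed (log2 fold change −0.17, adjusted p = 0.304 at 72 h and −0.20, adjusted p = 0.185 at 48 h), so at this depth a difference of GRHL1 was not established. The related CP2 factors TFCP2 and UBP1, which are expressed in most cells, averaged 8.48 and 8.07 FPKM at 48 h, against 10.9 and 9.86 FPKM in Cont cells. Both were lower at 48 h (−0.33, adjusted p = 0.0309, and −0.26, adjusted p = 0.0329) and neither passed at 72 h or at 48 h after quantile normalization.

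TFAP2A (ENSG00000137203, chr6:10393186-10419659, − strand) was called lower at both times, as was none of the other 8 tested factors in limma at this threshold, where GRHL3 at 72 h narrowly missed it. AP-2α acts in neural crest and surface ectoderm and on keratin genes. It had 10.1 and 9.85 FPKM at 72 h and 9.62 and 8.29 FPKM at 48 h, against 17.1 and 13.1 FPKM in Cont cells. The 4 knockdown libraries did not overlap the controls, and the 2 times overlapped each other. The 72 h mean was 66.0% of Cont (log2 fold change −0.54, SE 0.13, adjusted p = 0.0391) and the 48 h mean 59.3% (−0.69, SE 0.13, adjusted p = 0.012), with no call between the times (0.14, adjusted p = 0.522). The 72 h call was lost after quantile normalization (adjusted p = 0.0571), without a filter, on the compared groups alone, with unnamed gene models included and without any 1 library except the second Cont library (at most 0.144). The 48 h call was lost without the second 48 h library (0.0755). Its exons share 941 bases with TFAP2A-AS2 and 438 bases with TFAP2A-AS1 on the opposite strand, which were at no more than 0.081 and 0.658 FPKM.

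The paralog TFAP2C (AP-2γ), which shares the binding motif of AP-2α and is known in trophectoderm and keratinocytes, had 4.97 and 5.02 FPKM at 72 h and 5.48 and 5.38 FPKM at 48 h, against 8.92 and 7.55 FPKM in Cont cells. It was lower at both times, with a log2 fold change of −0.62 (SE 0.09, adjusted p = 0.00897) at 72 h and −0.52 (SE 0.09, adjusted p = 0.00883) at 48 h. The other 3 listed AP-2 relatives did not pass the filter, and 2 of them were at 0 in every library. The TFAP2C call at 72 h was lost without a filter and without the first 72 h library, and that at 48 h without the second 48 h library.

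KLF4 was the only one of the 9 tested factors called by limma between the 2 times. KLF4 (ENSG00000136826, chr9:107484852-107490482, − strand), known for its part in barrier formation and in reprogramming, had 0.728 and 0.974 FPKM at 72 h and 2.29 and 2.16 FPKM at 48 h, against 1.69 and 1.38 FPKM in Cont cells. The 72 h libraries, with 55 and 77 reads, lay below both controls (122 and 88 reads), and the 48 h libraries, with 148 and 161 reads, lay above them. At 72 h the mean was 2.62-fold below that at 48 h (log2 fold change −0.80, SE 0.11, adjusted p = 0.0264). It was 55.5% of Cont at 72 h (−0.45, SE 0.11, adjusted p = 0.0441) and 145% of Cont at 48 h (0.35, SE 0.11, adjusted p = 0.0608, not called). The call against Cont at 72 h was lost with any 1 library left out (adjusted p = 0.0749 to 0.179), and the call between the times without any 1 of the 4 knockdown libraries (at most 0.118).

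KLF5 (ENSG00000102554, chr13:73054976-73077541, + strand) had 25.3 and 21.5 FPKM at 72 h and 25.1 and 22.3 FPKM at 48 h, against 20.9 and 16.4 FPKM in Cont cells. All 4 knockdown libraries lay above both controls, at means of 126% and 127% of Cont. Neither difference passed (0.32, SE 0.13, adjusted p = 0.166 at 72 h and 0.34, SE 0.13, adjusted p = 0.107 at 48 h), and the 95% interval of the 48 h difference ran from 0.02 to 0.66. The 2 times differed by −0.02 (95% interval −0.34 to 0.30). The libraries of KLF4 and KLF5 thus stood on opposite sides of Cont at 72 h and on the same side at 48 h.

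Among 8 other Krüppel-like factors that passed the filter, 2 were lower and 1 higher at 72 h, and 4 were lower and 1 higher at 48 h. Limma called 9.51% of all tested genes lower and 3.56% higher at 72 h, with shares of 16.5% and 8.38% for 48 h. The 72 h count of lower genes was 1 without the second Cont library and 0 without the first Cont library or either 72 h library. KLF7, known in neurons and progenitors, averaged 1.64 FPKM at 72 h and 1.35 FPKM at 48 h, against 3.36 FPKM in Cont cells (log2 fold change −0.71 and −0.88, adjusted p = 0.0205 and 0.00634). KLF6, a widely expressed early-response factor, averaged 24.6 FPKM at 72 h and 23.0 FPKM at 48 h, against 17.1 FPKM in Cont cells (0.50 and 0.41, adjusted p = 0.00844 and 0.00883). KLF10, a gene induced by TGF-β in many cells, had 20.2 and 24.9 FPKM at 72 h and 14.6 and 14.9 FPKM at 48 h, against 27.9 and 26.8 FPKM in Cont cells. It was lower at 48 h (−0.85, adjusted p = 0.00333) and higher at 72 h than at 48 h (0.58, adjusted p = 0.0376). The call of KLF10 between the times was lost on the compared groups alone, with unnamed gene models included and with any 1 library left out except the first 72 h library.

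**Figure D3:**
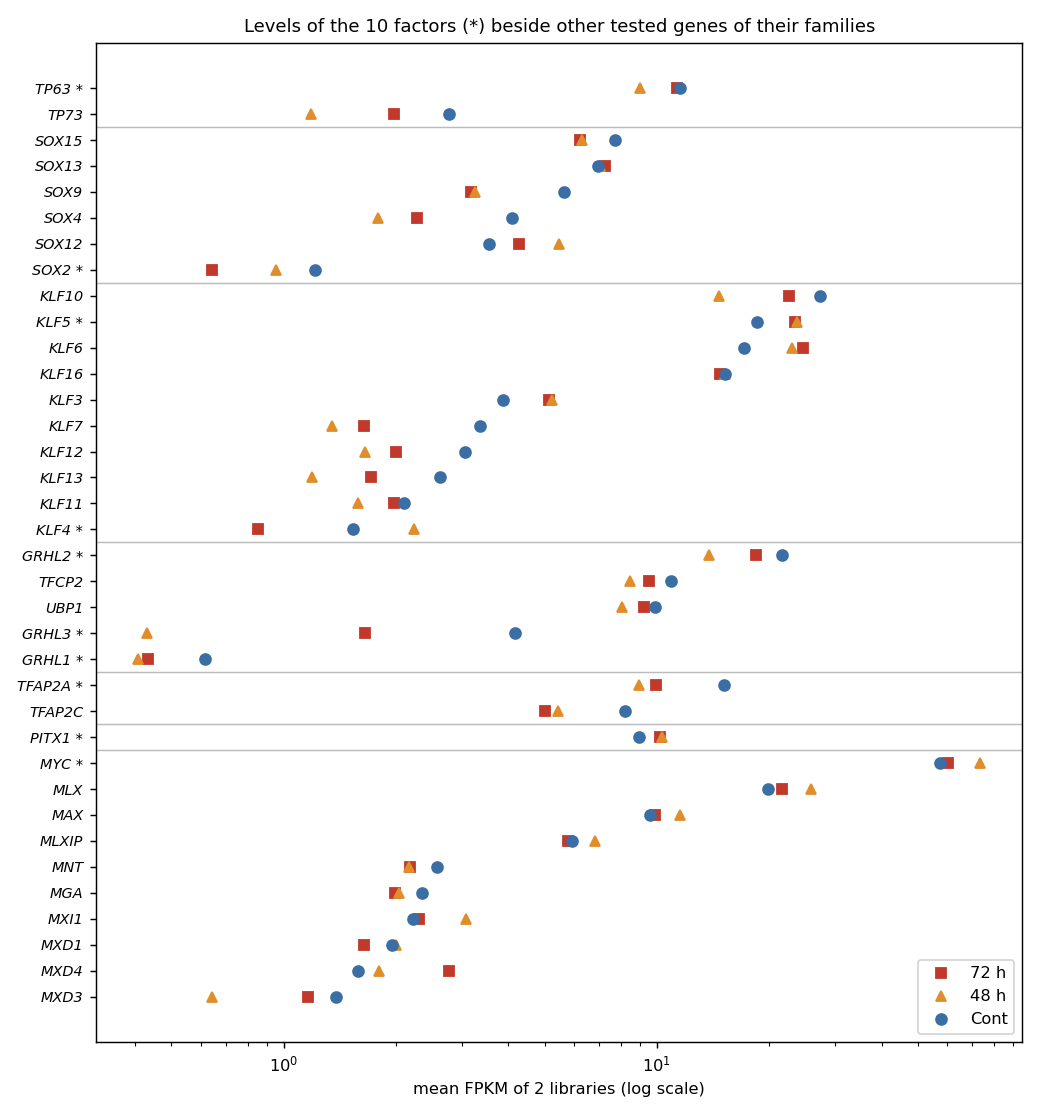
Mean FPKM of 2 libraries (horizontal axis, log scale) at 72 h, at 48 h and in Cont cells for the 10 factors (asterisks) and other tested genes of their families. TFAP2A and TFAP2C lie to the left of Cont at both times, GRHL3 is farthest from Cont at 48 h, and KLF4 lies on opposite sides of Cont at the 2 times.

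TP63 did not pass the test in any comparison. TP63 (ENSG00000073282, chr3:189631389-189897276, + strand) had 9.95 and 12.7 FPKM at 72 h and 9.62 and 8.43 FPKM at 48 h, against 12.4 and 10.7 FPKM in Cont cells. The 72 h libraries overlapped the controls, and the 48 h libraries lay below all others at 78.1% of the Cont mean. The log2 fold change was −0.03 at 72 h (95% interval −0.34 to 0.27, adjusted p = 0.897) and −0.32 at 48 h (−0.63 to −0.02, adjusted p = 0.109). The sign at 72 h turned to 0.02 after quantile normalization. The gene has starts that give products with and without the activation domain, and a value per gene does not separate them. Its relative TP73 was lower at 48 h (1.07 and 1.29 FPKM, against 2.54 and 3.03 FPKM in Cont cells, log2 fold change −0.79, adjusted p = 0.0115).

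SOX2 (ENSG00000181449, chr3:181711925-181714436, + strand), often amplified together with TP63 in squamous carcinomas, was near the detection filter. It had 0.656 and 0.627 FPKM at 72 h and 0.813 and 1.09 FPKM at 48 h, against 0.887 and 1.53 FPKM in Cont cells, with 34 to 67 reads a library. The 72 h libraries lay below all others at 53.1% of the Cont mean, and the 48 h libraries overlapped the controls. No difference passed (−0.41, SE 0.16, adjusted p = 0.143 at 72 h and −0.16, SE 0.16, adjusted p = 0.481 at 48 h). SOX2 lies inside SOX2-OT on the same strand, which was at no more than 0.003 FPKM.

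Of 5 other SOX genes that passed the filter, 2 were lower at both times, where 9.51% of all tested genes were lower at 72 h and 16.5% at 48 h. This count was 1 at 72 h without the first Cont library or either 72 h library, and 1 at 48 h without the first Cont library or the first 48 h library. SOX4, a factor of progenitors and of mesenchymal change, had 2.19 and 2.35 FPKM at 72 h and 1.75 and 1.84 FPKM at 48 h, against 3.93 and 4.28 FPKM in Cont cells (log2 fold change −0.64 and −0.87, adjusted p = 0.00684 and 0.00178). SOX9, known in cartilage and in epithelial progenitors, averaged 3.17 FPKM at 72 h and 3.25 FPKM at 48 h, against 5.63 FPKM in Cont cells (−0.67 and −0.64, adjusted p = 0.0184 and 0.0117). SOX12 was higher at 48 h (5.47 FPKM, against 3.55 FPKM in Cont cells, 0.51, adjusted p = 0.0112), a call lost without the first Cont library or the first 48 h library. SOX4 and SOX9 were each more abundant than SOX2 in every group mean. Of 10 other genes known from pluripotent cells, 1 passed the filter and 4 were at 0 in every library. It was DNMT3B, a de novo DNA methyltransferase, which averaged 4.06 FPKM at 72 h and 4.47 FPKM at 48 h, against 2.38 FPKM in Cont cells (0.58 and 0.69, adjusted p = 0.00684 and 0.00255).

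PITX1 (ENSG00000069011, chr5:135027734-135034813, − strand), a homeodomain factor of the hind limb and the oral epithelium, showed tight replicates. It had 9.84 and 10.6 FPKM at 72 h and 9.91 and 10.6 FPKM at 48 h, against 8.91 and 8.98 FPKM in Cont cells. All 4 knockdown libraries lay above both controls, at means of 114% and 115% of the Cont mean. The log2 fold changes of 0.17 (SE 0.07, adjusted p = 0.169) and 0.18 (SE 0.07, adjusted p = 0.112) did not pass. Their 95% intervals, which are not adjusted for the number of genes, ran from 0.00 to 0.34 and from 0.01 to 0.35. Its exons share 293 bases with AC008406.3 on the opposite strand, at no more than 0.167 FPKM.

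MYC was the most abundant of the 10 factors in every group and was not called in any comparison. MYC (ENSG00000136997, chr8:127735434-127742951, + strand) had 49.6 and 71.2 FPKM at 72 h and 80.6 and 66.5 FPKM at 48 h, against 53.9 and 60.9 FPKM in Cont cells. The 72 h libraries spanned the controls on both sides, and the 48 h libraries lay above both controls at 128% of the Cont mean. The log2 fold change was 0.05 at 72 h (95% interval −0.37 to 0.47, adjusted p = 0.88) and 0.35 at 48 h (−0.08 to 0.77, adjusted p = 0.194). The sign at 72 h turned without the first Cont library (−0.04) or the second 72 h library (−0.21). The gene model of the table is 1.53 times as long as the exons of MYC in GENCODE 29, so its FPKM depends on a length the reference does not share.

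Of 9 tested genes of the wider network around MYC and MAX, 1 was higher at 72 h, and 1 was lower and 3 were higher at 48 h. Of all tested genes, 3.56% were higher at 72 h, while 48 h cells had 16.5% lower and 8.38% higher. The call at 72 h was lost without the first Cont library or the first 72 h library, and the 3 higher at 48 h were lost without any 1 of the Cont or 48 h libraries. MXD4, a MAX partner that represses E-box genes, had 2.94 and 2.6 FPKM at 72 h and 1.81 and 1.79 FPKM at 48 h, against 1.52 and 1.64 FPKM in Cont cells. It was higher at 72 h (log2 fold change 0.54, adjusted p = 0.0132) and higher at 72 h than at 48 h (0.43, adjusted p = 0.0495). MXD3, of the same repressor group, averaged 0.641 FPKM at 48 h, against 1.38 FPKM in Cont cells (−0.54, adjusted p = 0.0114). MLX, a relative of MAX, and MXI1, a further MAX-binding repressor, were higher at 48 h (0.36, adjusted p = 0.0273, and 0.34, adjusted p = 0.0292), as was MAX itself (0.25). The call of MXD4 between the times was lost with any 1 library left out.

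Genes known as targets of the factors were counted from lists written from general knowledge, but chosen with earlier results of these data known. The counts below therefore describe these libraries and are not independent support. Of 51 tested MYC targets, 24 were higher and 1 lower at 48 h, with a median log2 fold change of 0.32, against −0.04 over all tested genes, of which 8.38% were higher. They included CAD, an enzyme of pyrimidine synthesis (23.3 and 21.4 FPKM at 48 h, against 13.7 and 14.2 FPKM in Cont cells, 0.64, adjusted p = 0.00294), MYBBP1A, a nucleolar protein (33.3 FPKM on average at 48 h, against 20.3 FPKM in Cont cells, 0.69, adjusted p = 0.00421), WDR74, a ribosome assembly factor (0.62, adjusted p = 0.00273), and TERT, the catalytic subunit of telomerase (2.29 and 2.17 FPKM at 48 h, against 0.75 and 0.896 FPKM in Cont cells, 0.83, adjusted p = 0.00287). RCL1, the exception, was lower at 48 h (−0.40) and at 72 h (−0.56). At 72 h only NOC4L was higher (0.64), and the median was 0.04. Between the times, 8 of the 51 were lower at 72 h than at 48 h, where 1.86% of all tested genes were lower. CAD was among them (−0.63, adjusted p = 0.0161), and the count of 8 depended on each of the 4 knockdown libraries. The count of 24 depended on single libraries: it was 5 without the second 48 h library, 12 without the first, 9 without the first Cont library and 16 without the second.

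Of 27 tested p63 targets, 13 were lower and 2 higher at 48 h, with a median of −0.32, and 4 were lower and 2 higher at 72 h, with a median of −0.04. Over all tested genes, 16.5% were lower and 8.38% higher at 48 h (median −0.04), and 9.51% and 3.56% at 72 h (median −0.05). KRT5, the type II keratin of basal cells, had 257 and 269 FPKM at 72 h and 126 and 117 FPKM at 48 h, against 298 and 247 FPKM in Cont cells. It was lower at 48 h (log2 fold change −1.15, adjusted p = 0.00178), overlapped Cont at 72 h and was higher at 72 h than at 48 h (1.11, adjusted p = 0.0126). FGFR2, a receptor of basal keratinocytes, had 8.93 and 9.45 FPKM at 72 h and 5.16 and 5.07 FPKM at 48 h, against 14.8 and 13.7 FPKM in Cont cells (−0.58 and −1.32, adjusted p = 0.00672 and 0.000574). DSC3, a desmosomal cadherin, was lower at both times (−0.85 and −1.32). LAMB3, a chain of laminin 332, and EGFR were the 2 higher at 48 h (0.80 and 0.66), and EGFR was higher at 72 h as well (0.65). The 48 h count of lower genes was 7 without the second 48 h library, and the 72 h count was 2 without the first Cont library or the first 72 h library. Of the 10 markers listed for squamous epithelium, which share keratins and desmosomal genes with the p63 list, 6 were lower and 1 was higher at 48 h. At 72 h, 1 was lower and 1 higher, and these counts are to be read against the same shares. The higher gene was KRT18 at both times, which is not particular to squamous cells.

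Of 18 tested grainyhead targets, 5 were lower at 72 h (median −0.30), and 8 were lower and 1 was higher at 48 h (median −0.33). Among all tested genes 9.51% were lower at 72 h (median −0.05), and 16.5% were lower and 8.38% higher at 48 h (median −0.04). ST14, the membrane protease matriptase, had 7.11 and 6.63 FPKM at 72 h and 5.22 and 5.44 FPKM at 48 h, against 13.3 and 13.0 FPKM in Cont cells (log2 fold change −0.84 and −1.16, adjusted p = 0.00223 and 0.000614). CLDN4, a claudin of tight junctions, averaged 6.52 FPKM at 72 h and 5.56 FPKM at 48 h, against 14.4 FPKM in Cont cells (−1.02 and −1.22, adjusted p = 0.00684 and 0.00253). SPINT2, an inhibitor of matriptase, and CDH3, the gene of P-cadherin, were lower at both times as well (−0.45 and −0.58 for SPINT2, −0.39 and −0.80 for CDH3). EVPL, an envelope plakin, was the 1 that was higher at 48 h (0.26). CDH1, the gene of E-cadherin, was not called at 72 h (0.24, adjusted p = 0.384) or at 48 h (−0.25, adjusted p = 0.303). Its libraries overlapped Cont at both times. The count at 48 h was 5 without the first Cont library or without the second 48 h library, and the count at 72 h was 2 without the first 72 h library.

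Of 6 tested targets of the Krüppel-like and AP-2 factors in epidermis, 2 were lower at 72 h and 4 at 48 h, with medians of −0.45 and −0.75, where 9.51% and 16.5% of all tested genes were lower, with medians of −0.05 and −0.04. The 72 h count was 0 without the first Cont library or either 72 h library. IVL (involucrin), a cornified envelope protein, had 1.06 and 1.14 FPKM at 72 h and 0.396 and 0.89 FPKM at 48 h, against 2.73 and 2.88 FPKM in Cont cells (−0.86 and −1.23, adjusted p = 0.0172 and 0.00334). KRT19, a keratin of simple and basal epithelial cells, averaged 103 FPKM at 72 h and 54.2 FPKM at 48 h, against 88.1 FPKM in Cont cells. It was lower at 48 h (−0.69, adjusted p = 0.0154), overlapped Cont at 72 h and was higher at 72 h than at 48 h (0.92, adjusted p = 0.0295). Another 10 genes of this list were in the table and did not pass the filter, so the terminal differentiation genes it holds were mostly too low to test.

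**Figure D4:**
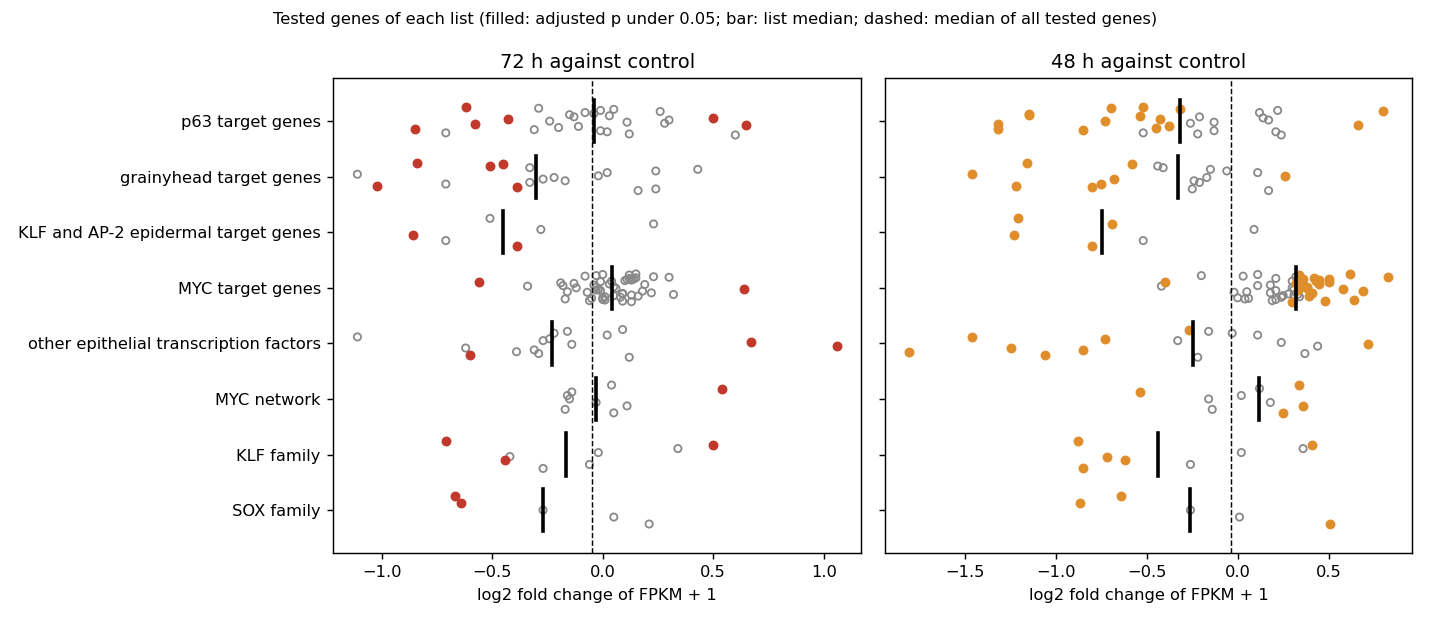
Log2 fold change of FPKM + 1 (horizontal axes, scaled separately) of the tested genes of the target and family lists at 72 h and at 48 h against Cont. Filled circles passed an adjusted p under 0.05, bars are list medians and the dashed line is the median of all tested genes. At 48 h the MYC targets lie to the right (median 0.32) and the p63, grainyhead and KLF and AP-2 targets to the left (medians −0.32, −0.33 and −0.75).

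Among 16 tested transcription factors of epithelia outside the set, 1 was lower and 2 higher at 72 h, and 7 were lower and 1 higher at 48 h. The shares of all tested genes were 9.51% and 3.56% at the later time and 16.5% and 8.38% at the earlier one. The 48 h count of lower genes was 4 without the second 48 h library. CEBPD, an acute-phase and differentiation factor, had 36.0 and 31.8 FPKM at 72 h and 14.0 and 10.3 FPKM at 48 h, against 53.1 and 37.5 FPKM in Cont cells. It was lower at 48 h (log2 fold change −1.81, adjusted p = 0.00252) and higher at 72 h than at 48 h (1.42, adjusted p = 0.0234). CEBPA was lower at both times (−0.60 and −1.06, adjusted p = 0.00577 and 0.0007). DLX3, a homeodomain factor of hair and teeth, was lower at 48 h (−0.85, adjusted p = 0.00252). FOXE1, a forkhead factor of thyroid and palate, was higher at 72 h (9.35 and 8.48 FPKM, against 5.21 and 5.24 FPKM in Cont cells, 0.67, adjusted p = 0.00518). ELF3, an ETS factor whose 72 h libraries lay far apart, was higher at 72 h as well (5.8 and 10.4 FPKM, against 3.12 and 3.3 FPKM in Cont cells, 1.06, SE 0.27, adjusted p = 0.0459). FOXA2 was the 1 higher at 48 h (0.72). Between the times, 5 of the 16 were higher and 1 was lower at 72 h than at 48 h, where the shares of all tested genes were 2.19% and 1.86%. The count of higher genes depended on each of the 4 knockdown libraries.

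For each tested factor the other gene with the most similar profile was sought by Pearson correlation of log2(FPKM + 1) over the 6 libraries, as a description only, since the 6 points share groups and depth and 11214 genes were searched. The closest were VPS4B for GRHL3 (r = 0.9981), BCAS4 for GRHL2 (r = 0.9978), LARP4B for TFAP2A (r = 0.9975), SLC6A15 for KLF4 (r = 0.9954) and ATG3 for SOX2 (r = 0.9937). They were PPIP5K1 for KLF5 (r = 0.9889), TIMP3 for PITX1 (r = 0.9874), MAPK14 for TP63 (r = 0.9861) and SIN3B for MYC (r = 0.9851). SLC6A15, an amino acid transporter, shared the order of KLF4, with 2.21 and 2.69 FPKM at 72 h and 4.3 and 4.01 FPKM at 48 h, against 3.46 and 3.04 FPKM in Cont cells. TFAP2A and GRHL2 each had 244 genes with r over 0.95, and MYC had 15.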

How the data were processed

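The authors extracted total RNA from SAS-Fucci cells with a column kit, sent it to a company for sequencing (DNBSEQ-G400) and used HISAT2 2.0.1 for alignment. The submitters' processing notes also name HTSeq 0.6.1, DESeq2 and GRCh38 without a role, and the annotation release, filters and strand handling are not given in the sources used here. The deposited values are FPKM to 3 decimals for 66351 gene models, of which 6831 have no name and were left out (2.68% to 2.94% of the reads). Low FPKM values were whole multiples of a step, within 0.1 read, which gave the assigned reads of each library, and these limit the precision of low genes. FPKM is relative to all assigned reads, so a change in abundant genes shifts the others.

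The 11214 named genes that reached 1 FPKM in 2 or more of the 6 libraries were tested on log2(FPKM + 1) in R 4.3.3. The limma 3.58.1 model had a mean for each group and a variance trend, and all 6 libraries entered it. The p-values were Benjamini-Hochberg adjusted over all of them. The methods state no model for the RNA-Seq. With 2 libraries against 2, an exact permutation test cannot go below p = 0.333, so none was used. The fit was tested on simulated data. Spans and overlaps came from GENCODE release 29 and the table, and promoters from the RefSeq table of GRCh38.p14. Tables were made with pandas 2.3.3 and numpy 2.4.6 under Python 3.11.15.

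The members and the gene lists were chosen with earlier results of these data known. Named were the members, IGFBP3, up to 4 called genes of each list by smallest p, and the gene most alike to each member. LAMB3, EGFR, EVPL, CDH1, RCL1, NOC4L, MAX, ELF3, FOXA2 and the antisense genes lie outside this rule and were named after their values were seen. The fit was repeated with voom on recovered reads, with unnamed gene models, without the variance trend, with the replicate number as a block, on the compared groups alone, after quantile normalization or conversion to TPM, with a filter at 5 FPKM or none, with pseudocounts of 0.1 and 5, at a threshold of 0.01 and without each library in turn. Some genes of the lists are not reported here by name. A group left with 1 library was assumed to vary like the others.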

Additional observations from a re-analysis of the deposited data

Results flagged for a closer look

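KLF4 was below Cont at 72 h (adjusted p = 0.0441) and had higher values than Cont at 48 h that did not pass (0.0608), and the difference between 72 h and 48 h was itself tested (log2 difference −0.80, SE 0.11, limma adjusted p = 0.0264). This call was lost without any 1 of the 4 knockdown libraries (at most 0.118). Both 72 h libraries lay below and both 48 h libraries above the 2 Cont libraries, with 55 and 77 reads at 72 h and 148 and 161 reads at 48 h, against 122 and 88 reads in Cont cells. The medium change after 48 h and the time of collection of the Cont cells cannot be told apart from the time after transfection.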

How the results depend on the processing

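At 72 h against Cont, where 1465 genes were called, the count was 371 without a filter, 965 with an FPKM of at least 5, 309 at a threshold of 0.01 and 388 to 1048 with 1 library left out. At 48 h (2785) it was 1432 without a filter, 941 at 0.01 and 1023 to 2394 with 1 library left out. At 72 h against 48 h (455) it was 18 without a filter, 250 on the compared groups alone, 98 with unnamed gene models included, 1153 with voom, 13 at 0.01 and 0 to 247 with 1 library left out (all by limma, 0 without the first 48 h library, 15 without the second 72 h library and 34 without the second 48 h library).

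The 2 factors called at 72 h fell to 1 with an FPKM of at least 5, to 0 without a filter, after quantile normalization, on the compared groups alone, with unnamed gene models included and at 0.01, and to 0 to 1 with 1 library left out. The 3 called at 48 h were 2 to 3 with 1 library left out. The 1 called between the times was 0 without a filter and at 0.01, 2 with voom and 0 to 1 with 1 library left out. GRHL3 at 72 h was called with voom (log2 fold change −1.39, adjusted p = 0.0176), KLF4 at 48 h with a pseudocount of 5 (0.0429), after quantile normalization (0.0302) and without a variance trend (0.0481), and GRHL2 between the times with an FPKM of at least 5 (0.0455) and voom (0.0227). TFAP2A at 48 h was lost without a filter (0.0641).

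The sign turned only for values that were not called. With 1 library left out, TP63 at 72 h ran from −0.19 to 0.13, MYC at 72 h from −0.21 to 0.31, SOX2 at 48 h from −0.38 to 0.05, and, between the times, PITX1 from −0.05 to 0.04 and KLF5 from −0.13 to 0.09. The sign turned without the first Cont library for TP63 (0.06) and MYC (−0.04), without the second Cont library for SOX2 and without single knockdown libraries for TP63, MYC, PITX1 and KLF5. After quantile normalization TP63 at 72 h was 0.02, and PITX1 and KLF5 between the times were 0.00. The cause of these changes was not tested. Replicate numbers share only a number: the correlation of replicate differences was 0.00 between Cont and 48 h, 0.16 between Cont and 72 h and −0.12 between 48 h and 72 h over 11214 genes. With the replicate block, 177 genes were called at 72 h against 48 h, KLF4 at 72 h was lost (0.0702), and GRHL3 at 72 h (0.0275) and KLF5 at 48 h (0.0301) were called. SOX2, KLF4 and GRHL1 had under 200 reads in every library, which limits their precision.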
